A study of Equus caballus with 6 samples.

Results

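Leydig cells lie between the seminiferous tubules and make testosterone under the control of LH. They are recognised by their steroid enzymes and the hormone INSL3, and also by proteins outside the steroid pathway, of which 5 were examined here: DLK1, CALB2, PLIN1, PLIN2 and EPHX1. The members are the array probes whose platform annotation gives exactly 1 of these symbols, which were 9 of 53423 gene probes: 1 each for DLK1, CALB2 and PLIN1, and 3 each for PLIN2 and EPHX1. No probe carried a member together with another symbol, and RefSeq lists a horse gene under each of the 5 symbols. The probes were made for human transcripts, while the RNA was from horses, so the fit of each probe to its horse transcript is not known here, and a weak signal does not show weak expression.

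The study compared 3 stallions given dexamethasone, a synthetic glucocorticoid (0.1 mg/kg intravenously), with 3 stallions given saline, called control here. All were adults acclimated for 10 days, and testes were removed 12 h after the injection. Total RNA of minced parenchyma from each stallion went onto 1 array, and no other treatment, allele or age is given by the labels. Because the tissue is whole parenchyma, fewer Leydig cells and less RNA per cell cannot be told apart. The Leydig cell genes LHCGR, the LH receptor, and INSL3 were above background on 6 of 6 arrays. Not all Leydig cell genes were read so well. Of the 17 with a probe in the list of 20 used below, NR5A1, FDX1 and HSD11B1 were above background on no array. HSD17B3 was above it on 1 array and CYP17A1 on 4.

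DLK1 is a membrane protein related to the Notch ligands, shed as a soluble factor and known from immature and steroid-producing endocrine cells. CALB2 (calretinin) is an EF-hand protein that binds calcium and is used in pathology to stain Leydig cells, mesothelium and some neurons. PLIN1 and PLIN2 are perilipins, coat proteins of the lipid droplets in which steroid-producing cells hold cholesteryl esters. PLIN1 is best known from adipocytes, and PLIN2 is found on droplets in many cell types. EPHX1 is the microsomal epoxide hydrolase, an enzyme of the endoplasmic reticulum that opens reactive epoxides to diols.

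A spot was counted as above background when its quality flag did not mark it as near background. Of the 9 member probes, 2 were above background on all 6 arrays, 2 on 5 arrays, 1 on 4, 1 on 2, 1 on 1 and 2 on none. A probe was tested if at least 3 arrays were above background, which kept 5 of the 9 members: those of DLK1, CALB2 and PLIN1 and 2 of EPHX1, but none of PLIN2. Over all gene probes 46.2% were above background on at least 3 arrays. In the sentences that follow, net intensity is the spot mean minus its local background in scanner units, and the log2 level is the normalised value on which the test was run. Net intensity is not scaled between arrays. The constant that scales each array in the deposited scaled intensity was 28.5, 24.3 and 23.9 in dexamethasone replicates 1, 2 and 3. In control replicates 1, 2 and 3 it was 30.8, 27.2 and 24.8.

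**Figure D1:**
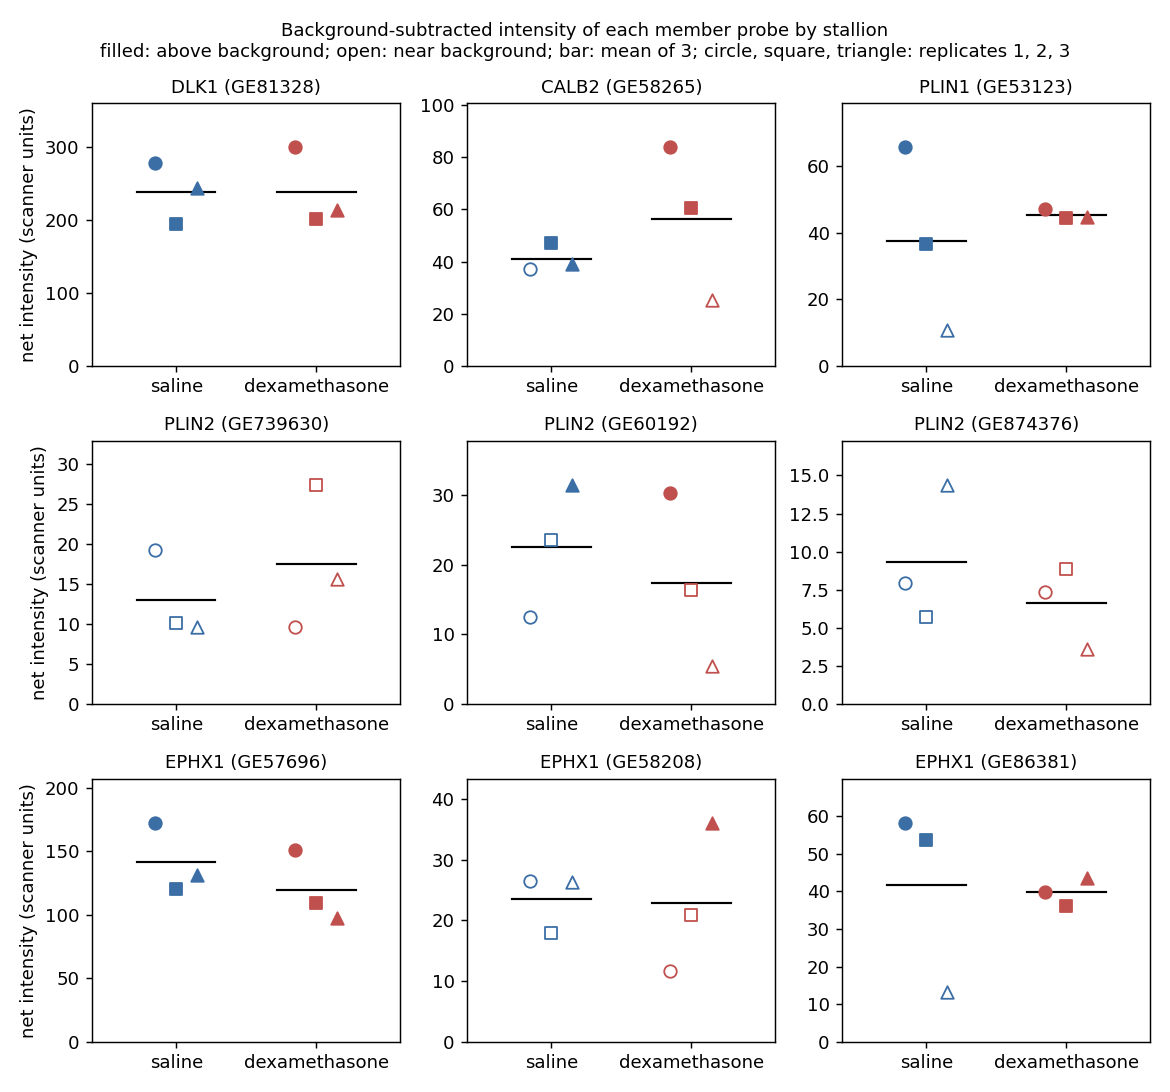
Net intensity (vertical axis, scanner units, from 0) of each of the 9 member probes in the 3 saline and 3 dexamethasone stallions. Filled symbols are above background, open symbols are near background and bars are group means. The groups overlap in every panel, and the PLIN2 panels hold 2 filled symbols among 18.

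DLK1 was read clearly in every stallion and did not differ between the groups beyond their spread. Net intensity was 300.4, 202 and 215 in dexamethasone replicates 1, 2 and 3, and 278, 195 and 244 in control replicates 1, 2 and 3. The highest value belonged to a treated stallion and the lowest to a control, with the other 4 mixed between them, so that the groups overlapped. The group means were 239 ± 54 and 239 ± 42 (SD, n = 3 each). On the log2 scale the levels were 8.46, 8.17 and 8.12 in the dexamethasone stallions against 8.17, 7.91 and 8.24 in the controls. The difference was 0.15 ± 0.12 (SE), with a 95% interval from -0.12 to 0.42 and limma adjusted p = 0.999. Without dexamethasone replicate 1 it was 0.04, and without control replicate 2 it was 0.05. Under median scaling of the arrays it was also 0.04.

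CALB2 had its highest and its lowest value within the dexamethasone group. Net intensity was 83.9, 60.4 and 25.2 in dexamethasone replicates 1, 2 and 3, and 37.1, 47.2 and 38.9 in control replicates 1, 2 and 3. The first and second treated stallions lay above all controls, the third lay below them, and the controls lay close together. Dexamethasone replicate 3 and control replicate 1 were near background, the other 4 stallions above it. The log2 levels were 7.05, 6.93 and 6.35 against 6.41, 6.64 and 6.55, with group means of 6.77 ± 0.38 and 6.53 ± 0.12 (SD, n = 3 each). The difference was 0.24 ± 0.16 (SE), with a 95% interval from -0.13 to 0.61 and limma adjusted p = 0.999. Without dexamethasone replicate 3 the difference was 0.46, with limma adjusted p = 0.972, and without dexamethasone replicate 1 it was 0.10.

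PLIN1 was above background in all 3 dexamethasone stallions and in 2 of 3 controls. Net intensity was 47.1, 44.4 and 44.8 in dexamethasone replicates 1, 2 and 3, and 65.7, 36.5 and 10.6 in control replicates 1, 2 and 3. The treated stallions lay within 3 units of each other, while the controls held both the highest and the lowest value. The log2 levels were 6.59, 6.69 and 6.68 against 6.78, 6.48 and 6.00, with group means of 6.65 ± 0.05 and 6.42 ± 0.40 (SD, n = 3 each). The difference was 0.24 ± 0.17 (SE), with a 95% interval from -0.14 to 0.61 and limma adjusted p = 0.999. In control replicate 3 the local background of this spot was 64, where the median of that array was 48. Only 0.0754% of the gene probes on that array had a local background as high. At the other 5 PLIN1 spots the local background was 47 to 52. Without control replicate 3 the difference was 0.02, and without control replicate 1 it was 0.41. The part of the local background in the low value was not tested. With no background correction the difference was 0.14, and with plain subtraction it was 0.76 ± 0.54 (SE).

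PLIN2 gave no testable signal. Its 3 probes are annotated to 3 different transcript records, and 2 of them were above background on no array. Their net intensities were 9.61 to 27.4 for probe GE739630 and 3.60 to 14.4 for probe GE874376. The highest of the first, in dexamethasone replicate 2, lay on a local background of 65 and was near background by its flag. The third probe, GE60192, had net intensities of 30.3, 16.4 and 5.49 in dexamethasone replicates 1, 2 and 3, and 12.5, 23.6 and 31.4 in control replicates 1, 2 and 3. It passed background in dexamethasone replicate 1 and control replicate 3, 1 stallion of each group. Its mean log2 levels were 6.12 ± 0.23 and 6.24 ± 0.20 (SD, n = 3 each), with overlapping groups and no test. These data therefore give PLIN2 no level and no fold in either group.

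EPHX1 was read by 3 probes that were not alike. The first, GE57696, was above background in every stallion, with net intensities of 151, 109 and 97.0 in dexamethasone replicates 1, 2 and 3, and 172, 121 and 132 in control replicates 1, 2 and 3. The highest value was in a control and the lowest in a treated stallion, but dexamethasone replicate 1 lay above 2 of the controls. The group means were 119 ± 28 and 141 ± 27 in net intensity, and 7.47 ± 0.17 and 7.54 ± 0.12 on the log2 scale (SD, n = 3 each). The difference was -0.07 ± 0.11 (SE), with a 95% interval from -0.31 to 0.18 and limma adjusted p = 0.999.

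The probe GE86381 is annotated to a different EPHX1 record and was above background in all dexamethasone stallions and in 2 of 3 controls. Net intensity was 39.8, 36.1 and 43.6 in dexamethasone replicates 1, 2 and 3, and 58.2, 53.8 and 13.2 in control replicates 1, 2 and 3. The treated stallions lay together between a pair of higher controls and 1 lower control. The group means were 39.8 ± 3.7 and 41.8 ± 24.8 in net intensity, and 6.57 ± 0.09 and 6.49 ± 0.38 on the log2 scale (SD, n = 3 each). The difference was 0.08 ± 0.16 on the log2 scale (SE), with a 95% interval from -0.29 to 0.44 and limma adjusted p = 0.999. Without control replicate 3 it was -0.14 ± 0.10 (SE). The local background of that spot was 52, against a median of 48 on its array. The remaining probe, GE58208, shares its record with GE57696 but passed background only in dexamethasone replicate 3, at 36.1, while the other 5 stallions lay between 11.6 and 26.5. It was not tested. In net intensity, which is not scaled between arrays, the means of both tested probes were lower in the dexamethasone group. The ratio of means, dexamethasone over control, was 0.842 for GE57696 and 0.954 for GE86381. In scaled intensity these ratios were 0.904 and 1.07, and on the log2 scale the differences had opposite signs. Each log2 difference was smaller than its SE, and the lowest stallions of the 2 probes were dexamethasone replicate 3 and control replicate 3.

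None of the 5 tested member probes passed limma's adjusted p of 0.05, where 0.00407% of the 24590 probes tested did. None passed an unadjusted p of 0.05 either, where 3.29% of all tested probes did, and the smallest unadjusted p among the members was 0.174, for CALB2. Among the 5, 0 had groups without overlap, against 9.27% of all tested probes. Exact two-sided permutation tests of the 5 log2 levels gave p from 0.4 to 1, where 3 stallions against 3 cannot give less than 0.1. The intervals end at 0.44 or below for DLK1 and both EPHX1 probes, and at 0.61 for CALB2 and PLIN1, on a scale that the offset of the background correction compresses for dim spots. With plain subtraction the same intervals ran from -0.20 to 0.56 for DLK1, from -0.44 to 1.34 for CALB2, from -0.51 to 2.04 for PLIN1, from -0.46 to 0.27 for EPHX1 probe GE57696 and from -0.83 to 1.51 for GE86381.

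**Figure D2:**
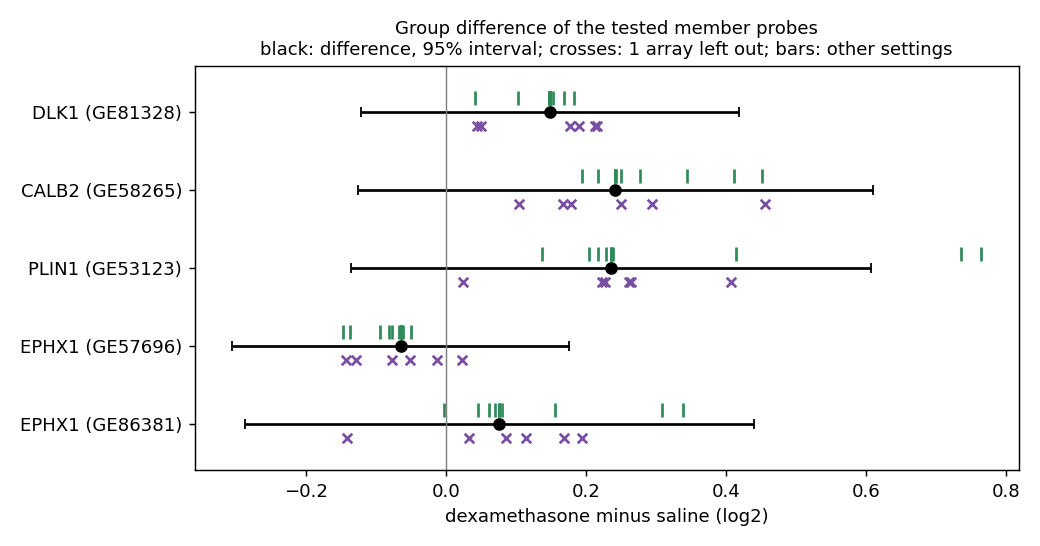
Difference between dexamethasone and saline stallions (horizontal axis, log2) for the 5 tested member probes. Black points and lines are the difference and its 95% interval, crosses leave out 1 array each and green bars are the other settings. Every interval spans 0, and the PLIN1 crosses run from 0.02 to 0.41.

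The spread between stallions of a group was large for these probes. The pooled within-group SD of the log2 level was 0.28 for CALB2, 0.28 for PLIN1 and 0.28 for EPHX1 probe GE86381, above that of 95.8%, 96.0% and 95.6% of all tested probes. It was 0.18 for DLK1 and 0.15 for EPHX1 probe GE57696, above 81.4% and 67.9%. The median over all tested probes was 0.12. The 3 most variable members were those with a stallion near background. In CALB2 the spread came from the dexamethasone group, with an SD of 0.38 against 0.12. In PLIN1 and GE86381 it came from the controls, with SDs of 0.40 against 0.05 and 0.38 against 0.09.

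The slide numbers form 2 unbroken stretches, called runs here, and each holds both groups, with 2 stallions against 2 in the first and 1 against 1 in the second. Whether the runs were processed as batches is not known here. Within the first run the log2 differences were 0.28 for DLK1, 0.47 for CALB2, 0.01 for PLIN1, 0.04 for EPHX1 probe GE57696 and -0.19 for GE86381. Within the second they were -0.11, -0.21, 0.68, -0.27 and 0.61 in the same order. DLK1, CALB2, GE57696 and GE86381 had opposite signs in the 2 runs. With the run as a block none of the 5 passed either (limma adjusted p of at least 0.998).

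The stallion with the lowest INSL3 was high in some member probes and low in others. INSL3 was at log2 levels of 8.70, 9.62 and 9.70 in dexamethasone replicates 1, 2 and 3 and 10.64, 10.33 and 10.66 in control replicates 1, 2 and 3, a difference of -1.21 ± 0.23 (SE, limma adjusted p = 0.999). Dexamethasone replicate 1, the lowest in INSL3, was the highest of the 6 in DLK1 and CALB2 and the second highest in EPHX1 probe GE57696. On the log2 scale it lay below 3 of the other 5 stallions in PLIN1 and was second lowest in EPHX1 probe GE86381. Among the untested probes it was lowest in EPHX1 probe GE58208 and PLIN2 probe GE739630, where it was near background. In PLIN2 probe GE60192 it was above background and second highest, at 6.345, below control replicate 3 at 6.433. In PLIN2 probe GE874376 it was near background at 5.92, where the 6 stallions ran from 5.83 to 6.08. The second INSL3 probe had the same stallion lowest, at 8.64 against 9.50 to 9.93 in the others. That probe differed by -0.52 ± 0.22 (SE), with overlapping groups. LHCGR varied little, from 12.17 to 12.36.

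Other Leydig cell genes were taken from a list of 20, of which 17 had a probe and 13 were tested. None passed the adjusted test in either direction, 4 lay higher and 9 lower in the dexamethasone stallions, and the median log2 difference was -0.07, beside -0.01 over all 10604 genes tested. Of the 13, 1 had groups without overlap and an unadjusted p under 0.05, INSL3 by its brighter probe. Over all tested probes 9.27% had groups without overlap and 3.29% an unadjusted p under 0.05. Genes of the other lists below were named by their smallest p, so groups without overlap are to be read beside these shares. The summed net intensity of the Leydig probes was 7609 to 8530 in dexamethasone and 9401 to 12440.5 in control stallions, with no scaling between arrays. Bright probes weigh most in this sum. In control replicate 1 LHCGR had 6040 and the INSL3 probes 1898 and 1124, and in dexamethasone replicate 1 they had 4429, 361 and 344. The mean normalised log2 level of the 13 tested genes overlapped, at 8.19 to 8.41 in dexamethasone and 8.34 to 8.48 in control stallions. LHCGR differed by -0.08 ± 0.09 (log2, SE). STAR, which carries cholesterol into mitochondria, differed by 0.01 ± 0.11, and by 0.19 ± 0.10 and -0.12 ± 0.09 with its other probes (SE). CYP11A1, which cleaves the side chain of cholesterol, differed by 0.08 ± 0.11 (SE) over 2 control values. The CYP11A1 spot set to missing by its flag, in control replicate 1, had the highest net intensity of the 6, at 217 against 160 to 171. That array also had the largest scale constant, at 30.8 against 23.9 to 28.5, so this rank may not hold after scaling.

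Genes that work with the perilipins at lipid droplets were thinly covered. Of 14 coat and assembly genes 10 had a probe and 3 were tested, with none past the adjusted test, 1 past an unadjusted p of 0.05, 2 higher and 1 lower, and a median of 0.04. BSCL2 (seipin), which shapes nascent droplets, had means of 10.27 ± 0.11 in dexamethasone and 10.58 ± 0.11 in control stallions (SD, n = 3 each). It differed by -0.31 ± 0.10 (SE, limma adjusted p = 0.999), and its groups did not overlap. AUP1 differed by 0.18 ± 0.11, and by -0.12 ± 0.10 with its second probe (SE). Of 15 genes of neutral lipid storage and hydrolysis 10 were tested, 5 higher and 5 lower, with a median of 0.00 and none past the adjusted test or an unadjusted p of 0.05. MGLL, a monoacylglycerol lipase, differed by 0.20 ± 0.13 and DGAT1, which makes triglycerides, by -0.14 ± 0.08 (SE), the latter without overlap.

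Among 18 Notch ligands, receptors and targets, the family to which DLK1 is related, 10 were tested and none passed the adjusted test (1 at an unadjusted p of 0.05), with 4 higher, 6 lower and a median of -0.02. The target gene HES1 had the smallest unadjusted p (0.0237), with means of 7.99 ± 0.30 in dexamethasone and 8.45 ± 0.29 in control stallions (SD, n = 3 each). It differed by -0.46 ± 0.17 (SE, limma adjusted p = 0.999), with overlapping groups. The receptor NOTCH4 differed by 0.09 ± 0.09 (SE). Of 16 EF-hand calcium-binding genes beside CALB2, 5 were tested and none passed (1 unadjusted), with 2 higher, 3 lower and a median of -0.10. S100A11 had means of 11.34 ± 0.30 in dexamethasone and 10.89 ± 0.12 in control stallions (SD, n = 3 each). It differed by 0.46 ± 0.14 (SE, limma adjusted p = 0.999), and its groups did not overlap. S100A10, a partner of annexin, differed by -0.12 ± 0.09 (SE). Of 16 epoxide hydrolase and xenobiotic oxidation genes beside EPHX1, 6 were tested and none passed (1 unadjusted), with 4 higher, 2 lower and a median of 0.04. CYP2J2, which makes epoxides of fatty acids, differed by 0.20 ± 0.09 (limma adjusted p = 0.999) with groups that did not overlap, and EPHX3, another epoxide hydrolase, by -0.07 ± 0.10 (SE).

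**Figure D3:**
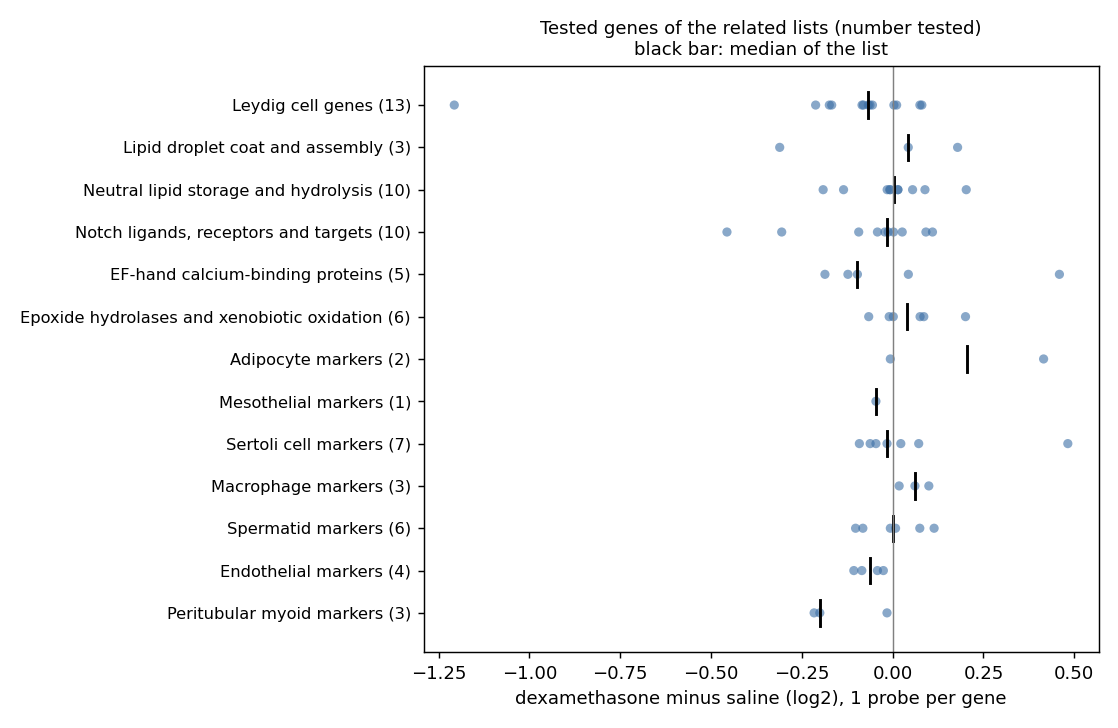
Difference between dexamethasone and saline stallions (horizontal axis, log2) for each tested gene of the related lists, 1 probe per gene, with the number tested in brackets. Black bars are list medians, which lie between -0.20 and 0.20, and the point at -1.21 is INSL3.

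Markers of other cells that can hold the members were read as well, and their part in the member levels was not tested. Of 10 adipocyte markers 8 had a probe. ADIPOQ, LEP, FABP4, RETN and GPD1 were above background on no array and CFD on 1 array. The tested LIPE and PPARG are not made by adipocytes alone. The summed net intensity of the adipocyte probes was 860 to 1278 in dexamethasone and 722 to 1218 in control stallions. PPARG differed by 0.42 ± 0.25, and by 0.11 ± 0.12 with its second probe, and LIPE by -0.01 ± 0.10 (SE). Of 8 mesothelial markers, which bear on CALB2, 7 had a probe and only WT1 was tested, at -0.05 ± 0.09 (SE), with summed net intensities of 158 to 180 and 170 to 219. The same WT1 probe is also counted among the Sertoli markers below, so it is not a reading of mesothelium alone. UPK3B and the keratins KRT8, KRT18 and KRT19 were above background on no array, and MSLN and PDPN on 1 array each. Macrophages, which often carry PLIN2, were read by 3 tested of 10 markers, with a median of 0.06, sums of 489 to 570 and 503 to 647, and 6 markers above background on no array, among them CD163 and CD14. Sertoli cells had 7 tested of 10, with a median of -0.02, sums of 1464 to 1737 and 1526 to 1947, and SOX9 above background on no array. CLDN11 differed by 0.48 ± 0.13 over 2 control values (limma unadjusted p = 0.00423, adjusted p = 0.999) without overlap, and by 0.04 ± 0.12 with its second probe (SE). Medians were 0.00 over 6 spermatid, -0.06 over 4 endothelial and -0.20 over 3 peritubular myoid genes. Sums, dexamethasone first, were 5621 to 6495 and 5746 to 7576, 1509 to 1545 and 1758 to 2228, and 498 to 537 and 573 to 711. The endothelial and myoid sums were lower in dexamethasone without overlap. The same held for the Leydig sums, for lipid droplet coat genes (1779 to 2070 and 2097 to 2878) and for Notch genes (4244 to 4603 and 5047 to 5452). Sums of the other lists overlapped. In mean normalised log2 level the endothelial genes overlapped, at 7.74 to 7.77 and 7.76 to 7.81. The myoid genes did not, at 7.03 to 7.17 and 7.22 to 7.27. None of these sums is scaled between arrays. Probes never above background made up 5 of 9 adipocyte, 5 of 8 mesothelial, 8 of 11 macrophage and 3 of 13 Sertoli probes. They were 2 of 8 spermatid, 3 of 8 endothelial and 5 of 9 myoid probes. In the lists above they were 6 of 26 Leydig, 5 of 12 lipid droplet coat and 6 of 18 neutral lipid probes. They were also 6 of 23 Notch, 8 of 15 EF-hand and 5 of 14 epoxide hydrolase and xenobiotic oxidation probes. MYLK, a myosin kinase of smooth muscle, differed by -0.22 ± 0.08 (limma adjusted p = 0.999) without overlap, and by -0.21 ± 0.16 with its second probe (SE). ACRV1, an acrosome protein, differed by -0.10 ± 0.09, TSSK2, a testis kinase, by 0.11 ± 0.18 over 2 control values and PECAM1, an endothelial adhesion protein, by -0.11 ± 0.09, and by -0.16 ± 0.10 with its second probe (SE). CD68, a lysosomal protein of macrophages, differed by 0.10 ± 0.09 and INHBB, an inhibin subunit, by -0.09 ± 0.17 (SE). No gene of the other-cell lists passed the adjusted test. Groups did not overlap for 1 Sertoli, 1 macrophage and 1 myoid gene. The limma unadjusted p was under 0.05 for 1 Sertoli and 1 myoid gene.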

How the data were processed

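Each of the 6 arrays is 1 stallion, and groups came from the labels. Replicate numbers follow sample order and pair no animals. The authors deposited, per the file headers, spot and local background intensity, a flag, a scaled intensity (1 constant per array) and a signal strength score (at most 1 for near-background flags). The scanner software is not given in the sources used here.

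Spots with no value were set to missing, as were the 320 to 1189 spots of an array flagged C, I or P, of which none was a member spot. Intensities were corrected with normexp (offset 50), probe names printed more than once were removed, and values were quantile normalised to log2 with limma 3.58.1 (R 4.3.3). Between 42.5% and 47.8% of gene probes were above background per array. limma's lmFit and eBayes compared the groups across all probes above background on at least 3 arrays with at least 2 values per group, two-sided, with Benjamini-Hochberg adjustment, after a check on simulated data. The number of arrays limits the precision. A list gene stands by its brightest tested probe.

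The members and lists were chosen with earlier results of these data known. Named are all member probes, the Leydig genes INSL3, LHCGR, STAR and CYP11A1, and from each other list the tested gene with the smallest p in each direction. Some markers above background on no array, and HSD17B3, CYP17A1, CFD, MSLN and PDPN, are named for their detection, outside that rule. A search for genes of like pattern took only member probes above background on all 6 arrays with an SD of at least 0.25, and none met this. Probe and promoter sequences were not used here.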

Additional observations from a re-analysis of the deposited data

How the results depend on the processing

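The 5 tested member probes stayed past no adjusted threshold in any alternative that tested them (12 settings and 6 arrays left out in turn); only DLK1 and EPHX1 probe GE57696 are tested under a filter of all 6 arrays. DLK1, CALB2 and PLIN1 kept their sign throughout, at 0.04 to 0.18, 0.19 to 0.45 and 0.14 to 0.76 over the settings. EPHX1 probe GE57696 ran from -0.14 to 0.023 with an array left out, positive only without dexamethasone replicate 3. GE86381 ran from -0.14 to 0.19, negative only without control replicate 3, and was -0.0026 with no background correction. The smallest unadjusted p was 0.00230 for CALB2 without dexamethasone replicate 3 and 0.0159 for PLIN1 without control replicate 1. Over all probes the count past adjusted p was 1, and 0 with background subtraction, with trended and robust eBayes or where all 6 arrays had to be above background, and 0 to 1 with an array left out (0 without control replicate 1 or 3). Fewer probes are tested under that last rule; otherwise the cause was not tested. Median scaling moved the median of all probes to -0.07. The list medians for neutral lipid genes, spermatids and Sertoli cells changed sign in 4, 6 and 3 of 8 alternatives, and those for lipid droplet, epoxide, mesothelial and macrophage genes in 1 each. The Leydig median was -0.17 under median scaling. No paired analysis was possible because the replicate numbers pair no stallions. Dim spots limit the CALB2, PLIN1, PLIN2 and GE86381 values.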
